A study of Mus with 12 samples.

Results

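The blood of 12 mice was examined for 9 genes that mark monocytes, out of 25247 genes in the deposited table. The members were taken by gene name, and each had a single row. Ly6c2, F13a1 and Fn1 stand for classical monocytes. Nr4a1, Ace, Adgre4 and Cd300e stand for patrolling monocytes. Lyz2 and Klf4 are monocyte genes that belong to neither side. All mice were female BALB/c animals, 6 weeks old when bought, with 3 mice per group and 1 whole-blood library per mouse from the last day of the experiment. The Solvent group received only the acetone and olive oil vehicle. The DNCB group was sensitised with 1% and then challenged with 0.5% 1-chloro-2,4-dinitrobenzene (DNCB), a contact sensitiser painted on the shaved back and the right ear to model atopic dermatitis. The scMSC and scivMSC groups had the same DNCB course and also received repeated doses of 2e6 human umbilical cord mesenchymal stem cells (MSCs). In scMSC the whole 100 µL dose went under the skin beside the lesion, and in scivMSC 50 µL went under the skin and 50 µL into the tail vein. No group received cells without DNCB, none is described as receiving DNCB with cell-free injections, and human cells were given to mice with an intact immune system.

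Monocytes are white blood cells made in the bone marrow from a myeloid progenitor. In the mouse, classical monocytes carry much Ly6C on their surface and leave the blood for inflamed tissue, where they become macrophages and dendritic cells. Patrolling monocytes carry little Ly6C, crawl along the inner wall of vessels and depend on the nuclear receptor Nr4a1, and many of them arise from classical monocytes in the blood. Ly6c2 encodes the Ly6C surface protein, F13a1 the A subunit of coagulation factor XIII, and Fn1 the matrix protein fibronectin. Ace encodes angiotensin-converting enzyme, Adgre4 an adhesion G protein-coupled receptor, and Cd300e an activating surface receptor. Lyz2 encodes lysozyme, which neutrophils make as well, and Klf4 a zinc-finger transcription factor of monocyte differentiation. Several of these genes are used by other blood cells too, F13a1 by platelets and their precursors and Nr4a1 by activated lymphocytes. In bulk blood RNA, fewer cells of a type and less RNA per cell cannot be told apart.

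Haemoglobin transcripts made up 91.3% to 95.6% of the summed FPKM values and 78.4% to 89.0% of the estimated counts. They left 5.84e6 (scivMSC library 2) to 12.9e6 (DNCB library 2) estimated counts per library for every other gene. The totals were 52.2e6 to 65.1e6 estimated counts, or 13.04e6 to 16.3e6 sequenced fragments at about 4 counts each. The mean haemoglobin share of the summed FPKM values was 93.6% in Solvent, 92.5% in DNCB, 94.2% in scMSC and 94.9% in scivMSC. The counts left for other genes had their highest group mean in DNCB and their lowest in scivMSC. Genes with at least 4 estimated counts numbered 14974, 11806 and 13159 in scivMSC libraries 1 to 3, and 15195 to 17350 in the libraries of the other groups. The part of these lower counts in the scivMSC results was not tested. Levels are given in FPKM, fragments per kilobase of gene scaled to the fragment total of the library, with haemoglobin inside that total. A gene was tested when it reached 1 FPKM in at least 3 libraries. This held for 5527 genes and for 6 of the 9 monocyte genes, while Adgre4, Cd300e and Klf4 were too low and are given from a fit to all 25247 genes. A gene was called when the Benjamini-Hochberg adjusted p of edgeR's quasi-likelihood test was under 0.05 and the change was over 2-fold, which is 1 on the log2 scale.

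**Figure D1:**
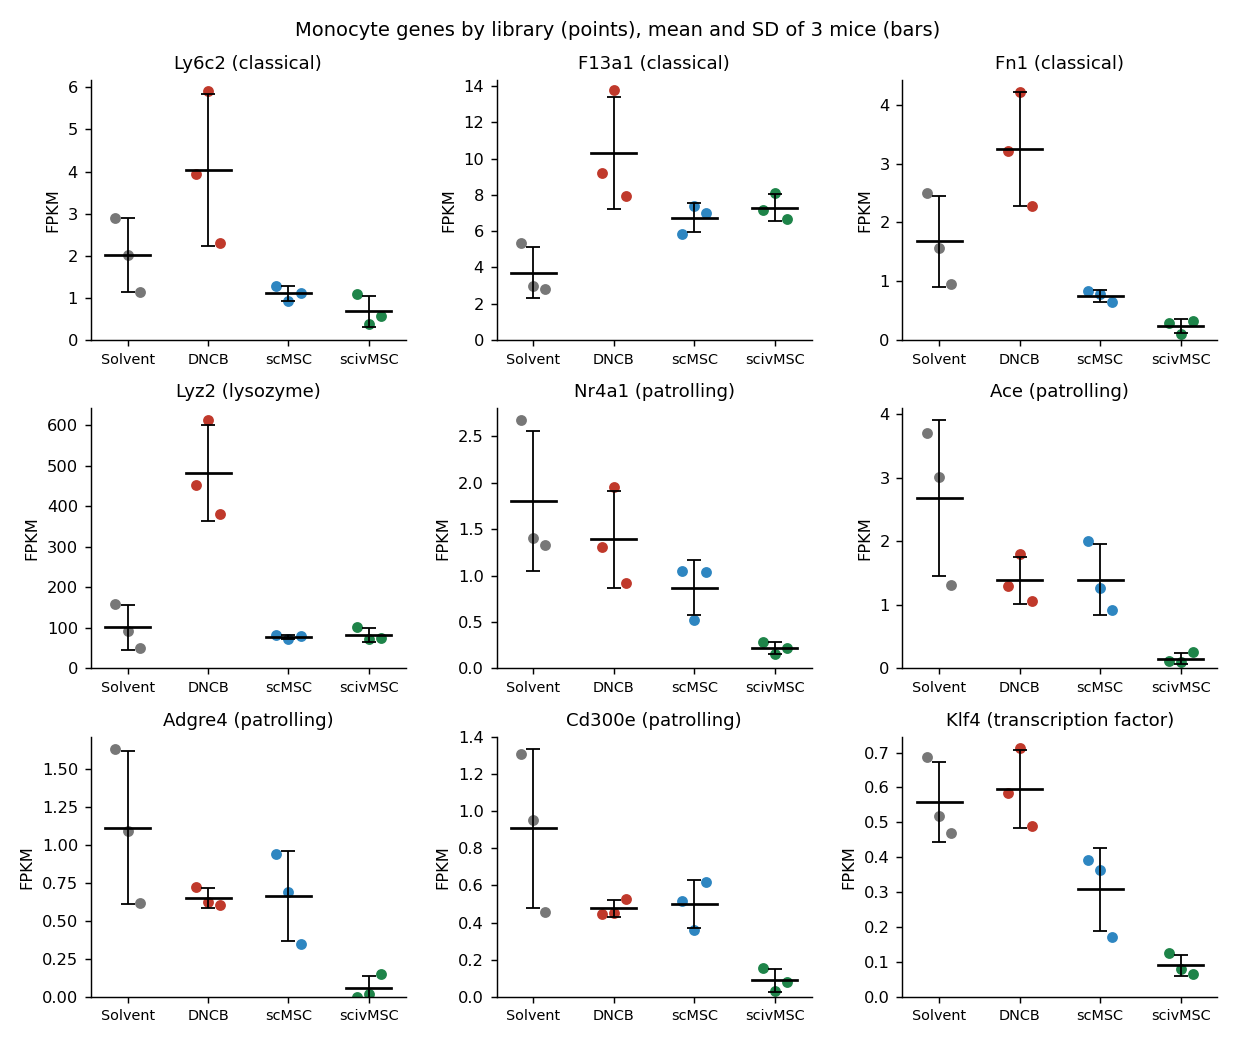
FPKM (vertical axes, linear, each from 0) of the 9 monocyte genes in the 4 groups (horizontal axes). Points are libraries, long bars are means and whiskers are SD of 3 mice. Lyz2 stands apart in the DNCB group at 382 to 614 FPKM, while Fn1, Nr4a1, Ace, Adgre4, Cd300e and Klf4 are lowest in each of the 3 scivMSC libraries. Most tested genes were lower there, with 62.0% called lower against DNCB and 59.2% against Solvent. The share of all genes lowest in each scivMSC library was not counted.

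The classical gene Ly6c2 (ENSMUSG00000022584, chr15:75108158-75111970, minus strand) stood at 2.91, 2.02 and 1.15 FPKM in Solvent libraries 1 to 3 and at 3.94, 5.90 and 2.30 in the DNCB libraries. It stood at 1.28, 0.925 and 1.11 FPKM in scMSC and at 1.09, 0.387 and 0.559 in scivMSC. DNCB libraries were the highest, at a group mean of 4.05 ± 1.80 FPKM (SD, n = 3), against 2.02 ± 0.880 in Solvent, 1.11 ± 0.177 in scMSC and 0.679 ± 0.367 in scivMSC. Every DNCB library lay above every library of both MSC groups, but neighbouring groups in this order overlapped. Over the 4 groups the adjusted p of the quasi-likelihood F test in edgeR was 0.000962.

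Fn1 (ENSMUSG00000026193, chr1:71585520-71653175, minus strand) had the same order of groups as Ly6c2. Its libraries held 2.50, 1.57 and 0.960 FPKM in Solvent, 3.22, 4.22 and 2.29 in DNCB, 0.839, 0.776 and 0.642 in scMSC and 0.290, 0.0967 and 0.319 in scivMSC. Group means were 1.68 ± 0.774, 3.24 ± 0.968, 0.752 ± 0.10 and 0.235 ± 0.121 FPKM (SD, n = 3), in that sequence. DNCB and Solvent overlapped, and from Solvent downward each group lay wholly above the next. The edgeR F test gave an adjusted p of 3.7e-05.

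F13a1 (ENSMUSG00000039109, chr13:36867178-37050244, minus strand) behaved differently from both. It was at 5.34, 2.97 and 2.81 FPKM in Solvent, 9.18, 13.8 and 7.93 in DNCB, 5.83, 7.41 and 6.99 in scMSC and 7.14, 8.08 and 6.64 in scivMSC. The means were 3.71 ± 1.42, 10.3 ± 3.08, 6.75 ± 0.816 and 7.29 ± 0.731 FPKM (SD, n = 3). All 3 groups treated with DNCB lay wholly above Solvent, and the MSC groups overlapped each other. The scivMSC group overlapped DNCB as well, whereas the scMSC libraries were all below it. The adjusted p over the 4 groups was 0.00393 in the edgeR F test.

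Of the patrolling genes, Nr4a1 (ENSMUSG00000023034, chr15:101254269-101274795, plus strand) held 2.68, 1.40 and 1.33 FPKM in Solvent and 1.31, 1.95 and 0.914 in DNCB. In scMSC it held 1.05, 0.525 and 1.04 FPKM, and in scivMSC 0.287, 0.152 and 0.215. The means fell in the order Solvent 1.80 ± 0.758, DNCB 1.39 ± 0.522, scMSC 0.871 ± 0.299 and scivMSC 0.218 ± 0.0673 FPKM (SD, n = 3). Among neighbours in this order, the libraries of scMSC and scivMSC did not overlap, and the other neighbours did.

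Ace (ENSMUSG00000020681, chr11:105967945-105989964, plus strand) had the widest range of the patrolling genes that were tested. Its libraries were at 3.71, 3.01 and 1.32 FPKM in Solvent, 1.30, 1.79 and 1.06 in DNCB, 2.01, 1.26 and 0.911 in scMSC and 0.109, 0.0943 and 0.259 in scivMSC. Means were 2.68 ± 1.23 in Solvent, 1.38 ± 0.373 in DNCB, 1.40 ± 0.561 in scMSC and 0.154 ± 0.0914 in scivMSC (FPKM, SD, n = 3). The first 3 groups overlapped, and the scivMSC libraries lay below all of them, at 28 to 79 estimated counts per library. The edgeR F test over the 4 groups gave adjusted p values of 8.8e-05 for Ace and 0.000435 for Nr4a1.

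Adgre4 (ENSMUSG00000032915, chr17:55749984-55853662, plus strand) repeated the pattern of Ace at a lower level. Solvent libraries held 1.63, 1.09 and 0.619 FPKM, DNCB libraries 0.721, 0.627 and 0.601, and scMSC libraries 0.940, 0.693 and 0.350. In scivMSC it was listed at 0 in library 1 and stood at 0.0191 and 0.150 FPKM in the others, on 4 and 30 estimated counts. A library was taken as at the detection floor with at most 12 estimated counts, or 3 fragments, so 2 of the 3 scivMSC libraries were at the floor for Adgre4.

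Cd300e (ENSMUSG00000048498, chr11:115051917-115062177, minus strand) stood at 1.31, 0.954 and 0.456 FPKM in Solvent and at 0.449, 0.454 and 0.528 in DNCB. It stood at 0.518, 0.360 and 0.619 FPKM in scMSC and at 0.156, 0.0323 and 0.0790 in scivMSC, where the libraries held 19, 4 and 10 estimated counts. As with Ace and Adgre4, the first 3 groups overlapped and scivMSC lay below them. With so few fragments the depth does not rank the scivMSC libraries of Adgre4 and Cd300e, and floors cover counting error only.

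Lyz2 (ENSMUSG00000069516, chr10:117277331-117282321, minus strand) was the most abundant of the 9 genes. It held 160, 92.5 and 51.3 FPKM in Solvent, 452, 614 and 382 in DNCB, 81.2, 72.8 and 78.8 in scMSC and 101, 71.4 and 74.5 in scivMSC. DNCB stood apart at a mean of 483 ± 119 FPKM (SD, n = 3), and the other 3 groups, at means of 101 ± 54.7, 77.6 ± 4.35 and 82.5 ± 16.5, overlapped. The edgeR F test gave an adjusted p of 4.9e-06.

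Klf4 (ENSMUSG00000003032, chr4:55527143-55532466, minus strand) held 0.686, 0.518 and 0.470 FPKM in Solvent, 0.584, 0.713 and 0.490 in DNCB, 0.391, 0.362 and 0.173 in scMSC and 0.125, 0.0808 and 0.0649 in scivMSC. Solvent and DNCB overlapped, the scMSC libraries lay below both, and the scivMSC libraries lay below scMSC. The group means were 0.558 ± 0.114, 0.596 ± 0.112, 0.309 ± 0.119 and 0.0901 ± 0.0310 FPKM (SD, n = 3).

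Set against Solvent, the DNCB group shows which monocyte genes differed after sensitisation and challenge without cells. Lyz2 rose to 4.77 times and F13a1 to 2.78 times its Solvent mean. Ly6c2 and Fn1 were about as much higher as each other, at 2.00 and 1.94 times their Solvent means, and neither passed the test. The 4 patrolling genes all had lower means in DNCB, at 0.772 times Solvent for Nr4a1, 0.517 for Ace, 0.584 for Adgre4 and 0.526 for Cd300e, and none was called. Klf4 stood at 1.07 times its Solvent mean.

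In edgeR's quasi-likelihood test the log2 fold changes were 2.25 for Lyz2 (SE 0.33, adjusted p = 0.000133) and 1.47 for F13a1 (SE 0.31, adjusted p = 0.00248). Ly6c2 had 1.00 (SE 0.47, adjusted p = 0.149) and Fn1 had 0.95 (SE 0.43, adjusted p = 0.129). Nr4a1 had -0.37 (SE 0.45, adjusted p = 0.616) and Ace -0.95 (SE 0.47, adjusted p = 0.169). In the fit to all genes, edgeR gave Adgre4 -0.77 (SE 0.66, adjusted p = 0.564), Cd300e -0.92 (SE 0.70, adjusted p = 0.507) and Klf4 0.10 (SE 0.63, adjusted p = 1). Thus 2 of the 6 tested monocyte genes were called higher and 0 lower, where 15.6% of all 5527 tested genes were called higher and 4.87% lower. Of all 25247 genes, 1.26% were called lower in the fit without a filter, and the 3 scarce members were not among them.

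Scaling by TMM, a method that takes most genes as unchanged, placed the median of all tested genes at -0.09 instead of 0.06 in this comparison. The median moved further in the comparisons with the MSC groups, so each is given on both scales. Under TMM, DNCB against Solvent gave 2.17 for Lyz2 and 1.34 for F13a1, both again called higher. Ace was called lower as well, at -1.07 (edgeR adjusted p = 0.0421), so 2 members were called higher and 1 lower against 16.1% and 11.5% of all tested genes. Ly6c2, at 0.85 (edgeR adjusted p = 0.0163), and Fn1, at 0.84 (edgeR adjusted p = 0.0250), then passed the p threshold but not the 2-fold change. The TMM fit without a filter differed: 4 members were called higher, Ly6c2, Fn1, F13a1 and Lyz2, and 0 lower, so Ace was not called. Of all 25247 genes that fit called 1459 higher and 773 lower.

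**Figure D2:**
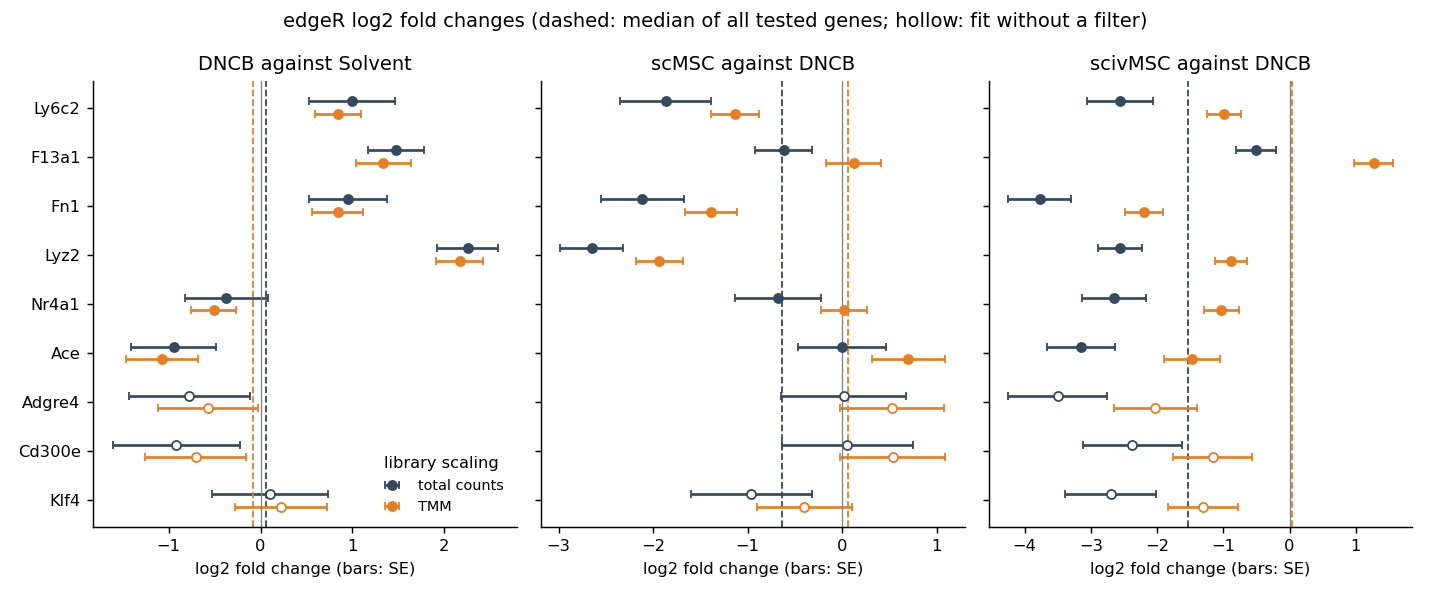
Log2 fold changes (horizontal axes) of the 9 monocyte genes in DNCB against Solvent and in both MSC groups against DNCB, from edgeR with libraries scaled by total counts (dark) or by TMM (orange). Points are estimates, bars are SE, hollow points come from the fit without a filter, and dashed lines are the medians of all tested genes, which on total-count scaling move from 0.06 to -0.63 and -1.53.

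The comparison of scMSC with DNCB asks what cells given under the skin changed in sensitised mice. The classical genes Ly6c2 and Fn1 fell, to 0.273 and 0.232 times their DNCB means, and Lyz2 fell to 0.161 times. F13a1 stood at 0.655 times its DNCB mean and was not called. Patrolling genes were near their DNCB levels, with Ace at 1.01, Adgre4 at 1.02 and Cd300e at 1.05 times the DNCB mean, and Nr4a1 stood at 0.626 times. None of these 4 was called, and neither was Klf4, at 0.518 times its DNCB mean.

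The log2 fold changes in edgeR were -1.87 for Ly6c2 (SE 0.48, adjusted p = 0.00872), -2.11 for Fn1 (SE 0.44, adjusted p = 0.0026) and -2.65 for Lyz2 (SE 0.33, adjusted p = 8.04e-05). F13a1 had -0.62 (SE 0.30, adjusted p = 0.136), which is the median of all genes, -0.63, to 1 decimal, and Nr4a1 had -0.68 (SE 0.45, adjusted p = 0.276). For Ace the fitted ratio was 0.999 (adjusted p = 0.999), with an approximate 95% interval of the log2 fold change from -0.91 to 0.91. The intervals of Adgre4, -1.27 to 1.30, and of Cd300e, -1.31 to 1.41, were wider still, so changes of 2-fold in either direction were not excluded for them. Klf4 had -0.96 (SE 0.64, adjusted p = 0.546).

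In scMSC against DNCB, 3 of the 6 tested members were called lower, where 24.9% of all tested genes were, and 0 were called higher, where 1.27% were. The fit without a filter called 4.65% of all genes lower, and none of Adgre4, Cd300e and Klf4. Under TMM the same 3 genes were called lower, at -1.14 for Ly6c2, -1.39 for Fn1 and -1.94 for Lyz2, against 12.3% of all genes lower and 8.74% higher. Ace (0.70), F13a1 (0.12) and Nr4a1 (0.02) then had values above 0 and were not called. The call for Ly6c2 was lost without DNCB library 2 (edgeR adjusted p = 0.0604) and without scMSC library 2 (edgeR adjusted p = 0.0504).

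The comparison of scivMSC with DNCB asks the same of cells given under the skin and into the vein. All 4 patrolling genes and 2 of the 3 classical ones were called lower here with total-count scaling, where most tested genes were. Ace fell to 0.111 times and Nr4a1 to 0.157 times its DNCB mean, and Adgre4 and Cd300e to 0.0865 and 0.187 times. Fn1 fell to 0.0725 times, Ly6c2 to 0.168 times, Lyz2 to 0.171 times and Klf4 to 0.151 times. F13a1, at 0.708 times its DNCB mean, was not called. This comparison and the one before share the 3 DNCB libraries, so their values are not independent.

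The log2 fold changes in edgeR were -3.15 for Ace (SE 0.51, adjusted p = 7.47e-05), -2.65 for Nr4a1 (SE 0.48, adjusted p = 0.000201) and -3.77 for Fn1 (SE 0.48, adjusted p = 1.07e-05). Ly6c2 had -2.56 (SE 0.50, adjusted p = 0.000332), Lyz2 -2.55 (SE 0.33, adjusted p = 1.35e-05) and F13a1 -0.50 (SE 0.30, adjusted p = 0.145). The median of all tested genes was itself -1.53 in this comparison. Relative to that median, Fn1 was lower by -2.25, Ace by -1.62, Nr4a1 by -1.13, Ly6c2 by -1.04 and Lyz2 by -1.03, while F13a1 was 1.02 above it.

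Thus 5 of the 6 tested members were called lower against 62.0% of all tested genes, and 0 higher against 1.43%, a share of lower calls that most genes had. In the fit without a filter, 22.9% of all genes were called lower. There edgeR gave Adgre4 -3.50 (SE 0.75, adjusted p = 0.000413), Klf4 -2.70 (SE 0.69, adjusted p = 0.00262) and Cd300e -2.37 (SE 0.75, adjusted p = 0.0159). The call for Cd300e was lost without scivMSC library 2 (edgeR adjusted p = 0.0515) or 3 (edgeR adjusted p = 0.0528). In a fit of the 6 libraries of these groups neither Adgre4 nor Cd300e passed (edgeR adjusted p = 0.0764 and 0.0911).

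TMM moved several of these calls. It left Fn1 (-2.20), Ace (-1.47) and Nr4a1 (-1.03) lower and turned F13a1 into a gene called higher, at 1.27 (edgeR adjusted p = 0.00275). These are 3 members lower and 1 higher, against 18.9% of all tested genes lower and 20.6% higher. In the filtered fit Ly6c2, at -0.99, and Lyz2, at -0.88, no longer reached a 2-fold change. In the TMM fit without a filter Klf4 (edgeR adjusted p = 0.1002) and Cd300e (edgeR adjusted p = 0.233) no longer passed the test, while Adgre4 did, at -2.02 (edgeR adjusted p = 0.0183). That unfiltered fit still called Ly6c2 and Lyz2 lower, with 6 members lower and 1 higher. Of all 25247 genes it called 1977 lower and 1521 higher.

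The direct comparison of scivMSC with scMSC asks whether the route of the cells mattered. With total-count scaling all 4 patrolling genes and Fn1 were called lower, and whether they differed from the genes not called was not tested. Nr4a1 fell to 0.250 times, Ace to 0.110 times, Adgre4 to 0.0850 times and Cd300e to 0.179 times its scMSC mean. Of the classical genes Fn1 fell, to 0.313 times, whereas Ly6c2 stood at 0.614 times and F13a1 at 1.08 times its scMSC mean. Lyz2 stood at 1.06 times and Klf4 at 0.292 times, and neither was called.

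In edgeR the log2 fold changes between the 2 MSC groups were -3.15 for Ace (SE 0.51, adjusted p = 0.00491), -1.97 for Nr4a1 (SE 0.47, adjusted p = 0.0121) and -1.66 for Fn1 (SE 0.44, adjusted p = 0.0157). Ly6c2 had -0.69 (SE 0.48, adjusted p = 0.257), F13a1 0.12 (SE 0.30, adjusted p = 0.783) and Lyz2 0.09 (SE 0.31, adjusted p = 0.833). The median of all genes was -0.87, and Ly6c2, F13a1 and Lyz2 lay 0.18, 0.99 and 0.96 above it. So 3 of 6 tested members were called lower against 30.4% of all genes, and 0 higher against 0.344%.

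Without the filter, where 8.68% of all genes were called lower, edgeR gave Adgre4 -3.52 (SE 0.75, adjusted p = 0.00405), Cd300e -2.43 (SE 0.75, adjusted p = 0.0348) and Klf4 -1.74 (SE 0.67, adjusted p = 0.0963). Under TMM, Ace (-2.17) and Nr4a1 (-1.05) remained lower, Fn1, at -0.81, no longer reached a 2-fold change, and F13a1 (1.15) and Lyz2 (1.05) were called higher. These are 2 members lower and 2 higher, against 4.92% of all genes lower and 13.1% higher. Without the filter, TMM kept Adgre4 lower (-2.55, edgeR adjusted p = 0.00671) and ended the call of Cd300e (-1.69, edgeR adjusted p = 0.0758). In that fit F13a1 was still called higher and Lyz2 was not. The calls of this comparison rest on the spread of all 12 libraries: in a fit of its own 6 libraries edgeR gave adjusted p values of 0.0518 for Ace, 0.0524 for Nr4a1 and 0.0546 for Fn1, and none of the 9 genes was called. Fn1 also lost its call without scMSC library 1 (edgeR adjusted p = 0.0544), and Cd300e lost its own without DNCB 1, scMSC 1, scMSC 3, scivMSC 2 or scivMSC 3 (edgeR adjusted p from 0.0552 to 0.114). Without scivMSC library 1, Ly6c2 (-1.21, edgeR adjusted p = 0.0394) and Klf4 (-2.03, edgeR adjusted p = 0.0307) were called lower.

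Compared with Solvent, the MSC groups show what differed from vehicle-treated mice after both DNCB and cells. In scMSC no monocyte gene was called by edgeR. F13a1 had the highest ratio, 1.82 times its Solvent mean (log2 fold change 0.85, SE 0.30, adjusted p = 0.112), and Fn1 and Nr4a1 the lowest, at 0.449 and 0.483 times. Ly6c2, Ace, Adgre4, Cd300e and Klf4 stood at 0.522 to 0.594 times and Lyz2 at 0.767 times. Few genes of any kind were called here, 0.326% of those tested higher and the same share lower, and 0.301% of all genes lower without a filter.

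Those calls shift with the scale. TMM called F13a1 higher in scMSC against Solvent, at 1.46 (edgeR adjusted p = 0.00746), and called 7.29% of all genes higher and 1.21% lower. A fit of the 6 libraries of these groups called Fn1 (adjusted p = 0.00504, edgeR) and Nr4a1 (adjusted p = 0.0263, edgeR) lower, and Fn1 was also called without scivMSC library 2 (edgeR adjusted p = 0.0311).

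In scivMSC against Solvent, 4 of the 6 tested genes were called lower, beside 59.2% of all genes, and 0 higher, beside 2.59%. Ace fell to 0.0576 times, Nr4a1 to 0.121 times, Fn1 to 0.140 times and Ly6c2 to 0.336 times its Solvent mean. The edgeR log2 fold changes were -4.10 for Ace (SE 0.53, adjusted p = 9.71e-05), -3.03 for Nr4a1 (SE 0.49, adjusted p = 0.0002), -2.82 for Fn1 (SE 0.46, adjusted p = 0.0002) and -1.57 for Ly6c2 (SE 0.48, adjusted p = 0.00956). Here the median of all genes was -1.47, close to the value of Ly6c2, whose call was lost without Solvent library 1 (edgeR adjusted p = 0.0542). With TMM Ly6c2 had -0.15 (edgeR adjusted p = 0.660) and was not called, and DESeq2 gave -0.12 (adjusted p = 0.730). Lyz2 had -0.30 (SE 0.31, adjusted p = 0.407).

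F13a1 went the other way, at 1.97 times its Solvent mean. Its log2 fold change of 0.97 (SE 0.30, edgeR adjusted p = 0.0107) missed the 2-fold limit, and it was called higher without Solvent library 1, at 1.33, or scivMSC library 3, at 1.03. Without a filter, where 28.2% of all genes were called lower, Adgre4 (-4.28, adjusted p = 6.08e-05), Cd300e (-3.29, adjusted p = 0.00105) and Klf4 (-2.60, adjusted p = 0.00312) were called lower by edgeR too. TMM gave 2.61 for F13a1 and 1.28 for Lyz2, both called higher, and -2.54 for Ace, -1.54 for Nr4a1 and -1.36 for Fn1, called lower, beside 22.4% of all genes higher and 13.4% lower. Without the filter TMM kept Adgre4 (-2.60) and Cd300e (-1.87) lower, and Klf4 lost its call with TMM (-1.08, edgeR adjusted p = 0.188) and with DESeq2 (-0.92, adjusted p = 0.0969).

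The classical and patrolling genes can be set against each other inside 1 library, where the library scale drops out except for genes near the pseudocount. For this the mean of log2(FPKM + 0.1) over Nr4a1, Ace, Adgre4 and Cd300e was taken from that over Ly6c2, F13a1 and Fn1, as a description with no test, since the members were chosen with results known. The balance was 0.63, 0.51 and 0.72 in Solvent and 2.36, 2.67 and 2.08 in DNCB. It was 0.82, 1.34 and 1.25 in scMSC and 2.81, 2.47 and 2.21 in scivMSC. Group means were thus 0.62 ± 0.11, 2.37 ± 0.30, 1.14 ± 0.28 and 2.50 ± 0.30 (log2 scale, SD, n = 3). DNCB and scivMSC stood together at the classical end, Solvent at the patrolling end and scMSC between them.

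DNCB and scivMSC reached that balance by different levels. In DNCB the classical genes were at their highest means, and in scivMSC the patrolling genes were at their lowest, with Ly6c2 and Fn1 at their lowest as well. F13a1 carried much of the scivMSC value. Without F13a1 the balance was 0.29 ± 0.020 in Solvent, 1.87 ± 0.35 in DNCB, 0.22 ± 0.17 in scMSC and 1.18 ± 0.43 in scivMSC (log2 scale, SD, n = 3), so that scMSC overlapped Solvent and scivMSC overlapped DNCB at a lower mean. A pseudocount of 1 in place of 0.1 lowered the scivMSC mean to 1.19 and the DNCB mean to 1.66, and DNCB then lay wholly above scivMSC.

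**Figure D3:**
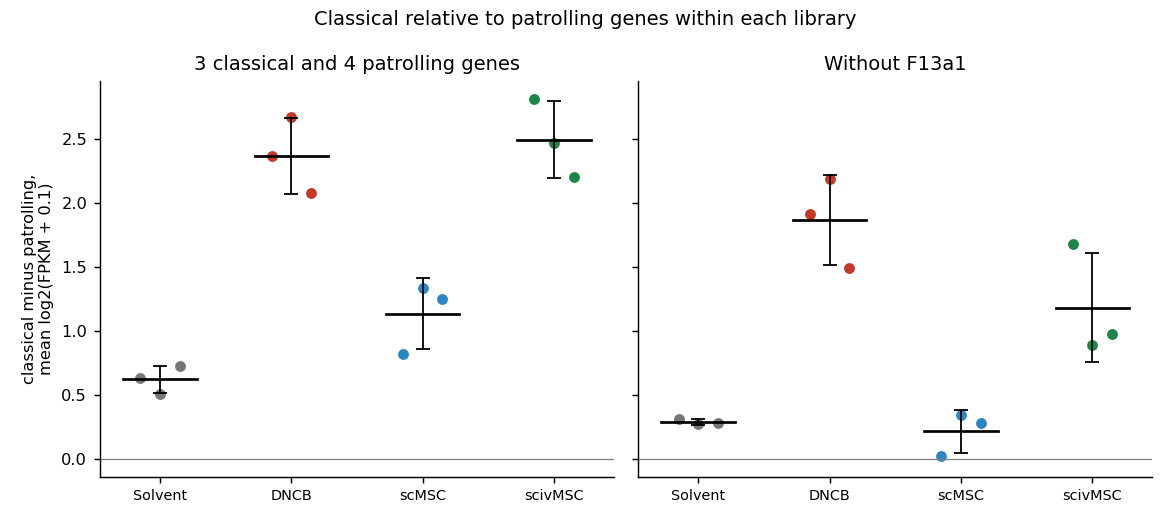
Mean log2(FPKM + 0.1) of the classical genes minus that of the patrolling genes in each library (vertical axis, log2 scale, 0 marks equal means), with all 7 genes on the left and without F13a1 on the right. Points are libraries, long bars are means and whiskers are SD of 3 mice. DNCB (2.08 to 2.67) and scivMSC (2.21 to 2.81) share 1 range on the left, and scivMSC falls to a mean of 1.18 on the right.

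Ratios of single pairs need no pseudocount, and they differed in where they placed scivMSC. The ratio of Ly6c2 to Nr4a1 was 1.13 ± 0.293 in Solvent, 2.85 ± 0.291 in DNCB, 1.35 ± 0.362 in scMSC and 2.98 ± 0.713 in scivMSC (ratio of FPKM, SD, n = 3). Every DNCB and scivMSC library, at 2.51 to 3.81, lay above every Solvent and scMSC library, at 0.861 to 1.76. The ratio of Fn1 to Ace was 0.642 ± 0.107 in Solvent, 2.33 ± 0.170 in DNCB, 0.578 ± 0.147 in scMSC and 1.64 ± 0.893 in scivMSC, where the libraries were at 2.66, 1.03 and 1.23. Fn1 to Nr4a1 set only DNCB apart, at 2.38 ± 0.182 against 0.925 ± 0.200 in Solvent, 0.965 ± 0.452 in scMSC and 1.04 ± 0.425 in scivMSC. The scivMSC group therefore resembled DNCB in the ratios with Ly6c2 and not in the ratio of Fn1 to Nr4a1. Ly6c2 to Ace ranged from 2.16 to 10.0 in scivMSC, where Ace rested on 28 to 79 estimated counts.

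Lyz2 and F13a1 moved beside markers of other cells. All 11 neutrophil markers, such as the alarmin S100a8, were called higher in DNCB than in Solvent, at a list median of 5.08 (log2), and were called lower in both MSC groups than in DNCB. Of all tested genes 15.6% were called higher in DNCB against Solvent, and 24.9% and 62.0% lower in scMSC and scivMSC against DNCB. The summed level of the neutrophil markers was 221 to 446 FPKM in Solvent, 7043 to 11049 in DNCB, 582 to 724 in scMSC and 249 to 747 in scivMSC, and no marker was at 0 in any library. The ratio of Lyz2 to S100a8 was 1.41 ± 0.515 in Solvent, 0.237 ± 0.0242 in DNCB, 0.605 ± 0.110 in scMSC and 0.924 ± 0.399 in scivMSC (ratio of FPKM, SD, n = 3). The part of neutrophils in the Lyz2 result was not tested.

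The 9 platelet markers, such as the chemokine Pf4, summed to 395 to 628 FPKM in Solvent, 617 to 845 in DNCB, 756 to 981 in scMSC and 783 to 918 in scivMSC, with none at 0. Of them 4 were called higher in DNCB against Solvent, 1 and 0 were called lower in scMSC and scivMSC against DNCB, and 1 and 6 were called higher in scMSC and scivMSC against Solvent. All genes were called higher at 15.6% in DNCB against Solvent. In scMSC and scivMSC they were called lower at 24.9% and 62.0% against DNCB and higher at 0.326% and 2.59% against Solvent. With TMM, 3 and all 9 platelet markers were called higher in scMSC and scivMSC against DNCB (medians 0.69 and 2.03), and all 9 in both MSC groups against Solvent, beside 8.74%, 20.6%, 7.29% and 22.4% of all genes. Like most of this list, F13a1 was not called lower in either MSC group against DNCB, and with TMM it was called higher in scivMSC. Its ratio to Pf4 was 0.0173 ± 0.00367 in Solvent, 0.0429 ± 0.0114 in DNCB, 0.0176 ± 0.00265 in scMSC and 0.0219 ± 0.00442 in scivMSC (ratio of FPKM, SD, n = 3). Only DNCB libraries, at 0.0339 to 0.0558, stood above the rest, at 0.0131 to 0.0268. The part of platelets in the F13a1 result was not tested.

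**Figure D4:**
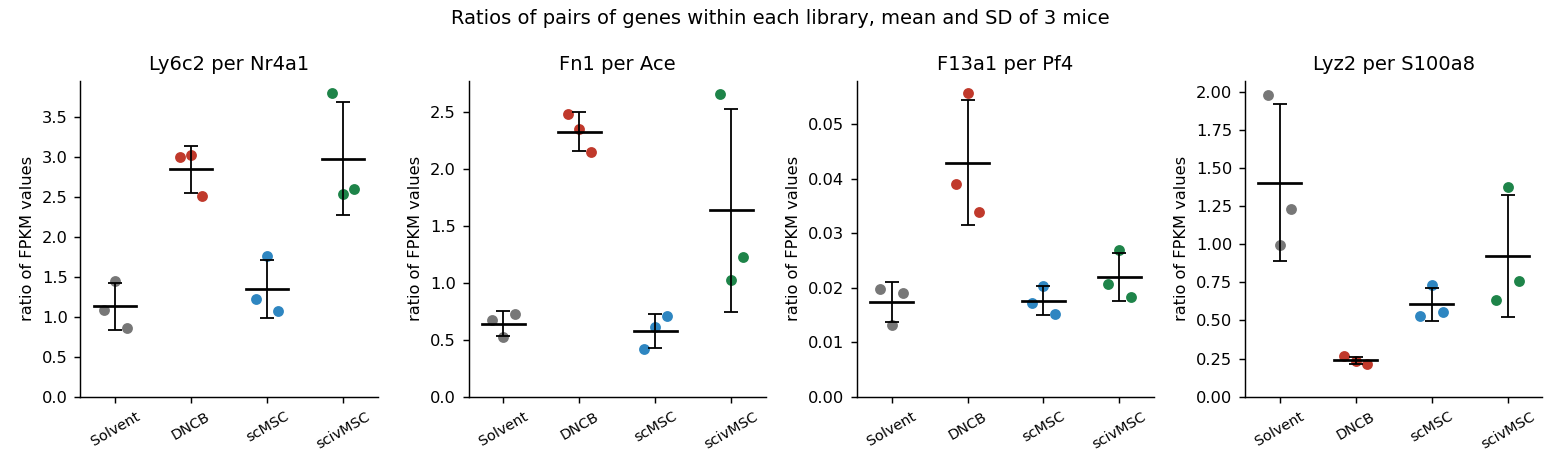
Ratios of FPKM values of 2 genes in each library (vertical axes, linear, each from 0) in the 4 groups. Points are libraries, long bars are means and whiskers are SD of 3 mice. Ly6c2 per Nr4a1 is high in DNCB and scivMSC, F13a1 per Pf4 is high in DNCB alone (0.0339 to 0.0558), and Lyz2 per S100a8 is lowest in DNCB (0.217 to 0.264).

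Reads of 2 members can be shared with near-identical neighbours. Ly6c1 (chr15:75044018-75048830) lies beside Ly6c2 and stood at 4.44, 3.11 and 2.14 FPKM in Solvent, 5.73, 7.98 and 4.16 in DNCB, 1.76, 1.02 and 1.28 in scMSC and 1.37, 0.634 and 0.970 in scivMSC. The ratio of Ly6c2 to Ly6c1 kept within 0.535 to 0.905 in all 12 libraries, and edgeR called Ly6c1 lower in the same 3 comparisons as Ly6c2: -2.15 (adjusted p = 0.00231) and -2.58 (adjusted p = 0.000137) in the scMSC and scivMSC comparisons with DNCB and -1.70 (adjusted p = 0.00317) for scivMSC against Solvent. With TMM and the filter both genes were called lower in scMSC against DNCB alone. How reads were shared between the copies is not stated, so the split between Ly6c1 and Ly6c2 is uncertain, and Ly6c1 is also made by lymphocytes and endothelium. Lyz1, beside Lyz2, never exceeded 1.51 FPKM and was not tested.

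Other genes of both monocyte kinds were read from lists, which were chosen with results of these data known. Of the 7 classical companions, 6 were tested. In DNCB against Solvent 3 of these were called higher: Chil3, a chitinase-like protein, at 4.18, the haptoglobin gene Hp at 3.84, and the glutathione transferase Mgst1 at 3.25 (edgeR log2 fold changes). Neutrophils also make all 3. Plac8 had 0.98 (SE 0.47, edgeR adjusted p = 0.152) and Ccr2, the chemokine receptor that lets classical monocytes leave the marrow, 0.74 (SE 0.50, edgeR adjusted p = 0.319). The called genes are thus those shared with neutrophils, while Ccr2 and Plac8 stood near the values of Ly6c2 and Fn1. The list had a median of 2.11 where all genes had 0.06, and 15.6% of all tested genes were called higher. With TMM 3 of the 6 were called higher, beside 16.1% of all genes.

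Ccr2 held 2.56, 0.991 and 0.678 FPKM in Solvent, 2.04, 3.61 and 1.44 in DNCB, 1.12, 0.840 and 1.37 in scMSC and 0.491, 0.209 and 0.536 in scivMSC. The scivMSC libraries lay below all others, and those of scMSC below DNCB, while Solvent overlapped both scMSC and DNCB. In scMSC against DNCB 5 of the 6 tested companions were called lower, with a list median of -2.56 beside 24.9% of all genes lower, and Ccr2, at -1.10 (SE 0.50, edgeR adjusted p = 0.111), was the exception. All 6 were called lower in scivMSC than in DNCB, with a median of -2.75, beside 62.0% of all genes. Against scMSC, scivMSC had 2 of the 6 lower, Ccr2 among them (-1.42), beside 30.4% of all genes. In scivMSC against Solvent Chil3 was called higher (2.06) and 3 were called lower, among them Plac8 (-2.71) and Ccr2 (-1.77), and in scMSC against Solvent none of the 6 was called, with a median of 0.01. With TMM 4 of the 6 were called lower in each MSC group against DNCB, and 0 lower and 1 higher, Chil3 (1.34), in scivMSC against scMSC. TMM called 3 higher and 1 lower in scivMSC against Solvent and 2 higher in scMSC against Solvent, and it did not call Ccr2 in any of the 6 comparisons. On that scale all genes were called lower at 12.3% and 18.9% in scMSC and scivMSC against DNCB, and higher at 13.1% between the MSC groups. Against Solvent TMM called 7.29% of them higher in scMSC, and 22.4% higher and 13.4% lower in scivMSC.

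The 12 patrolling companions, of which 9 were tested, did not move as 1 group. In DNCB against Solvent the Fc receptor gene Fcgr4 (3.06), the transcription factor Cebpb (2.57) and the integrin Itgal (1.22) were called higher by edgeR and none lower, and the median was 1.22. Of all tested genes 15.6% were called higher and 4.87% lower. With TMM 5 of the 9 were called higher and 1 lower, beside 16.1% and 11.5% of all genes. Fcgr4, Cebpb and Itgal are made by neutrophils or lymphocytes too. Spn, the sialophorin CD43 that patrolling monocytes carry at a high level and T cells also carry, had -0.91 (SE 0.43, edgeR adjusted p = 0.147). It held 11.6, 9.46 and 7.61 FPKM in Solvent and 5.89, 5.63 and 3.67 in DNCB, so that the groups did not overlap.

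Cx3cr1, the fractalkine receptor that defines patrolling monocytes, and the transcription factor Pou2f2 were too low to be tested and are named here after their values were seen. Cx3cr1 held 1.08, 0.620 and 0.349 FPKM in Solvent, 0.270, 0.489 and 0.152 in DNCB, 0.197, 0.0992 and 0.0479 in scMSC, and 0.0724 and 0.0292 in scivMSC, where it was listed at 0 in library 2. Pou2f2 held 1.51, 0.776 and 0.617 FPKM in Solvent, 0.422, 0.679 and 0.271 in DNCB, 0.483, 0.249 and 0.339 in scMSC and 0.0705, 0.0490 and 0.204 in scivMSC. For both, the mean was highest in Solvent and lowest in scivMSC, as it was for Nr4a1, Ace, Adgre4 and Cd300e. The summed T cell, B cell and NK cell markers had the same highest and lowest groups. Their means were 58.5, 73.1 and 27.8 FPKM in Solvent and 12.0, 5.43 and 6.75 FPKM in scivMSC. The part of lymphocytes in the values of Cx3cr1 and Pou2f2 was not tested. Other companions went the other way in DNCB. Mean FPKM in Solvent and DNCB was 1.06 and 2.60 for Treml4, 0.782 and 1.91 for Itgax, and 1.78 and 2.60 for Ear2. Fcgr4, Cebpb and Itgal also had higher means in DNCB, while Spn, Cd36, Fabp4 and Eno3 had lower ones.

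In scMSC against DNCB edgeR called 4 of the 9 tested patrolling companions lower, Fcgr4 (-2.41), Cebpb (-2.03), Treml4 (-1.56) and Itgal (-1.33), with a median of -1.23. Spn had 0.40 (SE 0.43, edgeR adjusted p = 0.498). In scivMSC against DNCB 7 were called lower, with a median of -2.58, and the largest were Fcgr4 (-3.86), the receptor Treml4 (-3.25) and the integrin Itgax (-2.91). Cd36, a scavenger receptor that platelets and red-cell precursors also carry, had 0.56 (SE 0.40, edgeR adjusted p = 0.217) and the ribonuclease gene Ear2 -1.30 (SE 0.76, edgeR adjusted p = 0.135). Between the MSC groups 5 were called lower in scivMSC, Spn among them (-1.70), with a median of -1.30. Against Solvent 0 were called in scMSC and 5 were lower in scivMSC, with medians of -0.11 and -1.36. These stand beside 24.9% and 62.0% of all genes lower in scMSC and scivMSC against DNCB, 30.4% between the MSC groups and 59.2% in scivMSC against Solvent. With TMM, 2 and 5 of the 9 were called lower and 1 and 1 higher in scMSC and scivMSC against DNCB. TMM called 0 lower and 1 higher between the MSC groups (median -0.40), and 0 lower and 2 higher in each MSC group against Solvent. All genes were then called lower at 12.3% and 18.9% and higher at 8.74% and 20.6% in scMSC and scivMSC against DNCB. They were called higher at 13.1% between the MSC groups, and at 7.29% and 22.4% in scMSC and scivMSC against Solvent.

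Most of the tested genes that monocytes share with other myeloid cells rose in DNCB. Of 10 genes of this list 6 were tested, and 5 were called higher in DNCB against Solvent, led by the endotoxin co-receptor Cd14 (3.21), the transcription factor Spi1 (2.93) and Csf1r (1.73), the receptor of the growth factor that monocytes depend on. Of all tested genes 15.6% were called higher. With TMM 5 of the 6 were called higher and 1 lower, beside 16.1% and 11.5% of all genes. Csf1r held 4.79, 2.96 and 1.59 FPKM in Solvent, 8.29, 13.9 and 8.74 in DNCB, 2.75, 1.94 and 2.01 in scMSC and 0.850, 0.249 and 0.550 in scivMSC. All DNCB libraries lay above all others. DNCB differed from Solvent by 1.73 on the log2 scale (SE 0.44, edgeR adjusted p = 0.00978), scMSC from DNCB by -2.22 (SE 0.45, edgeR adjusted p = 0.00218) and scivMSC from DNCB by -4.23 (SE 0.49, edgeR adjusted p = 6.9e-06). The part of neutrophils in the Csf1r result was not tested.

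Irf8, a transcription factor of the monocyte and dendritic cell lineage that B cells also use, was the tested gene of this list that was not higher in DNCB, at -0.97 (SE 0.46, edgeR adjusted p = 0.151). In scMSC against DNCB 4 of the 6 were called lower, with a median of -2.34, and in scivMSC against DNCB all 6, with a median of -3.92. Between the MSC groups 4 were lower in scivMSC (median -1.33). Against Solvent 0 were called in scMSC (median -0.18) and 4 were lower in scivMSC (median -2.04). The shares of all genes called lower were 24.9%, 62.0%, 30.4% and 59.2% in scMSC and scivMSC against DNCB, scivMSC against scMSC and scivMSC against Solvent. TMM called 4, 5, 2 and 3 of the 6 lower in these comparisons, beside 12.3%, 18.9%, 4.92% and 13.4% of all genes. In scMSC against Solvent TMM called 1 lower, beside 1.21%.

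Nr4a1 and Klf4 also belong to the genes that cells switch on within minutes of a stimulus. Of the 12 other immediate early genes listed, 6 were tested and 5 were called higher in DNCB against Solvent, led by the phosphatase gene Dusp1 (2.27), the AP-1 genes Junb (1.96) and Fos (1.77), where Nr4a1 had -0.37. Of all tested genes 15.6% were called higher. TMM called all 6 of this list higher, beside 16.1% of all genes. Junb held 15.1, 10.0 and 6.81 FPKM in Solvent and 36.3, 49.7 and 38.4 in DNCB. The 6 untested genes were low and differed in direction, as Egr1 had a lower mean in DNCB than in Solvent (0.162 ± 0.0322 and 0.360 ± 0.179 FPKM, SD, n = 3) and Atf3 a higher one (1.37 ± 0.480 and 0.424 ± 0.0425). Nr4a1 was not tested against the list. All 6 tested genes were called lower in both MSC groups against DNCB, with medians of -1.73 and -2.95, and 4 were lower in scivMSC against scMSC, with a median of -1.17. Against Solvent 0 were called in scMSC (median -0.12) and 5 were lower in scivMSC (median -1.28). All genes were called lower at 24.9% and 62.0% in scMSC and scivMSC against DNCB, 30.4% between the MSC groups and 59.2% in scivMSC against Solvent. With TMM 3 and 6 of the 6 were lower in scMSC and scivMSC against DNCB, 0 were called between the MSC groups, and 0 were lower and 1 higher in each MSC group against Solvent. TMM called 12.3% and 18.9% of all genes lower in scMSC and scivMSC against DNCB, and 7.29% and 22.4% higher against Solvent. The summed level of this list was 19.0 to 39.3 FPKM in Solvent, 80.7 to 117 in DNCB, 25.1 to 30.1 in scMSC and 5.33 to 17.7 in scivMSC.

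**Figure D5:**
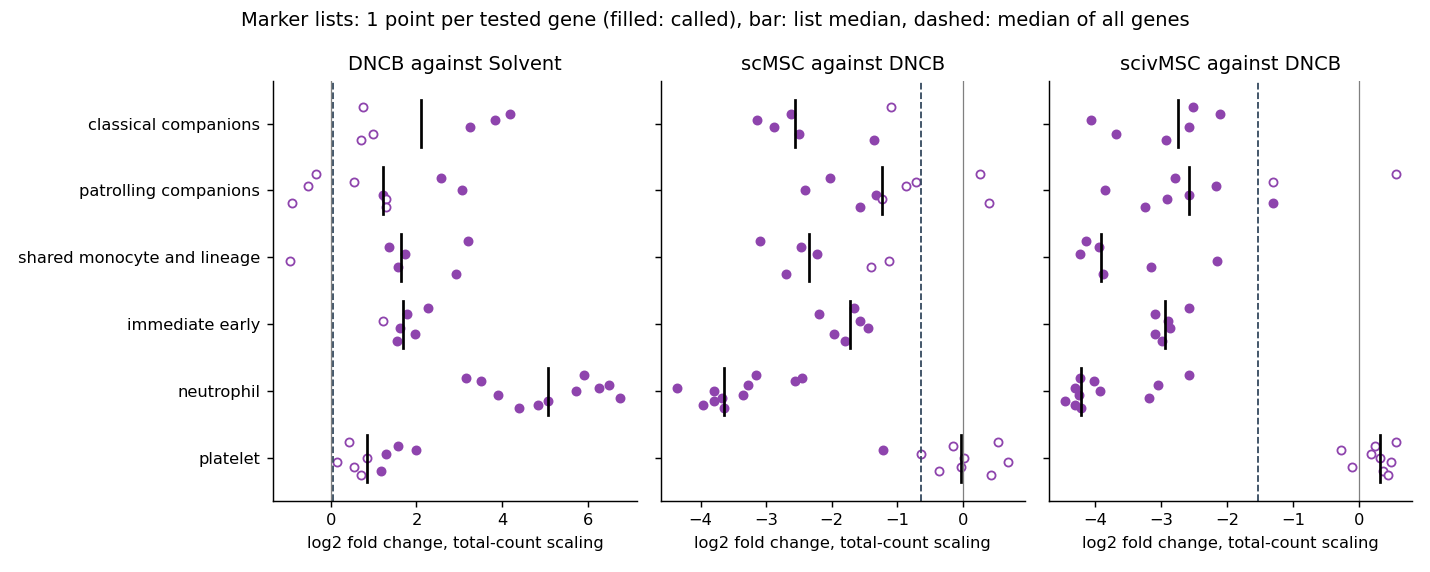
edgeR log2 fold changes with total-count scaling (horizontal axes) of the tested genes of 6 marker lists (rows) in DNCB against Solvent and in both MSC groups against DNCB. Points are genes, filled where called, short bars are list medians and the dashed line is the median of all tested genes. The patrolling companions lie on both sides of 0 in DNCB against Solvent, the neutrophil markers lie far to the right there (median 5.08), and the platelet markers stay near 0 in both MSC groups on this scale, where with TMM their medians were 0.69 and 2.03.

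Over the 12 libraries, the tested genes most like each member were found by Pearson's r of log2(FPKM + 1), as a description only, since all libraries share their groups and the same haemoglobin background. Ly6c2 was closest to Mppe1 (r = 0.984), Plekhm1 (0.980) and its copy Ly6c1 (0.980), and Fn1 to Cmtr1 (0.991), Zc3h12d (0.990) and Sp140 (0.986). F13a1 was closest to Chst12 (r = 0.969), the platelet ADP receptor gene P2ry1 (0.959) and Mapk3 (0.957), and Lyz2 to Arpc3 (0.988), Actg1 (0.987) and Prdx5 (0.982). Neither Ly6c2, Fn1 nor F13a1 had another classical member among its 3 closest genes.

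Among patrolling genes, Adgre4 was closest to Ace (r = 0.979), followed by Calu (0.941) and Smim15 (0.940). Ace was closest to Rbbp5 (r = 0.965), Ifi209 (0.965) and Nop56 (0.959), among genes that passed the filter, which Adgre4 did not. Nr4a1 was closest to Hes6 (r = 0.990), Supt20 (0.984) and Sting1 (0.984), Cd300e to Sesn1 (0.961), Ripk3 (0.959) and Trp53 (0.959), and Klf4 to Kdm2a (0.978), Senp6 (0.974) and Il10ra (0.974).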

How the data were processed

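Whole-blood RNA of 12 mice was sequenced. The authors deposited 1 table of 25247 genes with an FPKM value and an estimated count per library. The submitters' processing notes name Bowtie 0.12.2, HISAT2 2.0, StringTie 1.3.0 and build mm8, without their roles. Strand use is not given in the sources used here. The coordinates printed are those of the deposited table. They overlap the RefSeq spans of GRCm38.p6 for 96.28% of 21469 genes matched by symbol, and for all 9 members, so the named build is doubtful. Whole-number deposited counts were treated as estimated counts, because 29.0% of values from 1 to 12 equal 4, 16.0% equal 8 and 9.75% equal 12.

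Counts were tested with edgeR 4.0.16 (quasi-likelihood, R 4.3.3) in 1 fit of 4 group means over all libraries, scaled by total counts, for genes with at least 1 FPKM in 3 libraries. SE were derived from the log2 fold change and its F statistic. A call needed a Benjamini-Hochberg adjusted p under 0.05 and a log2 fold change beyond 1. Alternatives were TMM, totals without haemoglobin, DESeq2 1.42.0, limma 3.58.1 on log2(FPKM + 1) and log2(FPKM + 0.1), counts divided by 4, other filters, fits of 2 groups, a replicate block and leaving out each library. Tests were first checked on simulated counts. Replicates are separate mice per the study's methods, and no 2 libraries agreed within sampling noise. No batch or date is labelled.

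Groups came from the labels. The members and the gene lists were chosen with earlier results of these data known. Named are the 9 members, the copies Ly6c1 and Lyz1, from the 4 lists of monocyte and immediate early genes at most 3 of the highest and 3 of the most changed genes per comparison, and the 3 genes most correlated with each member. Other genes named (Ccr2, Spn, Cd36, Ear2, Irf8, Cx3cr1, Pou2f2, Fabp4, Eno3, S100a8, Pf4, Egr1, Atf3, Irf7, Siglech, Ccr9, Tcf4) were chosen after their values were seen. 1 tested gene of the classical companion list is not reported here, though the list counts and medians include it. Lists for neutrophils, platelets, T cells, B cells, NK cells, plasmacytoid dendritic cells and erythroid cells were read as counts.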

Additional observations from a re-analysis of the deposited data

How the results depend on the processing

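Of the alternative values of the members' log2 fold changes, 1082 kept their direction and their side of the threshold, 45 lost a call, 21 gained one and 34 reversed. Counts are of calls by edgeR unless another tool is named. Genes called in DNCB against Solvent went from 1133 to 309 with a mean FPKM of at least 5. Genes called in scMSC against DNCB went from 1445 to 337 with that filter and ranged from 813 to 1804 over fits leaving out 1 library. In scivMSC against DNCB, 3506 became 2180 with TMM, 2232 with DESeq2, 2005 with limma on log2(FPKM + 1), 532 with a mean FPKM of at least 5, 6255 with at least 40 counts in 3 libraries (added after seeing the data) and 5952 without a filter. In scivMSC against scMSC, 1701 became 994, 1091, 335, 174 and 2779 in the first 5 of these, 4 in a fit of the 6 libraries alone, and 512 to 2944 with 1 library left out. In scMSC against Solvent, 36 became 470 with TMM, 398 with totals without haemoglobin, 556 with DESeq2, 211 and 56 with limma at pseudocounts of 1 and 0.1, 1149 in the 6-library fit, 62 with counts divided by 4, 55 with a mean FPKM of at least 5, 9 with at least 40 counts, 104 without a filter, 11 with the replicate block and 4 to 824 with 1 library left out. In scivMSC against Solvent, 3415 became 1981 with TMM, 2028 with DESeq2, 1767 with limma on log2(FPKM + 1), 485 with a mean FPKM of at least 5, 7234 with at least 40 counts and 7373 without a filter.

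Monocyte genes called in scMSC against DNCB fell from 3 to 1 with a mean FPKM of at least 5, which leaves F13a1 and Lyz2. In scivMSC against DNCB they went from 5 to 1 with that filter and to 8 with at least 40 counts or no filter. In scivMSC against scMSC, 3 became 1 with limma on log2(FPKM + 1), 0 in the 6-library fit, 0 with a mean FPKM of at least 5, 6 with at least 40 counts and 5 without a filter. In scMSC against Solvent, 0 became 1 with TMM, totals without haemoglobin or DESeq2, 2 in the 6-library fit and 0 to 1 with 1 library left out. In scivMSC against Solvent, 4 became 0 with a mean FPKM of at least 5 and 7 with at least 40 counts or no filter.

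The balance of classical and patrolling genes with a pseudocount of 1 was 0.40 in Solvent, 1.66 in DNCB, 0.75 in scMSC and 1.19 in scivMSC. Without F13a1 it was 0.29, 1.87, 0.22 and 1.18, and without Fn1 0.85, 2.69, 1.72 and 3.45. In Solvent it was 0.88 without Ace, 0.49 without Adgre4 and 0.40 without Cd300e, and without Ly6c2 it was 1.47 in scMSC and 2.85 in scivMSC.

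Reversed log2 fold changes with TMM and DESeq2 were, for Ly6c2 in scivMSC against scMSC, 0.14 and 0.17. For F13a1 they were 0.12 and 0.0802 in scMSC against DNCB and 1.27 and 1.28 in scivMSC against DNCB. For Lyz2 they were 0.23 and 0.23 in scMSC against Solvent and 1.28 and 1.32 in scivMSC against Solvent. For Ace they were 0.70 and 0.67 in scMSC against DNCB, and for Nr4a1 0.0170 with TMM. Totals without haemoglobin gave 0.12 for F13a1 in scivMSC against DNCB, 0.15 for Lyz2 in scivMSC against Solvent, 0.39 for Ace in scMSC against DNCB and -0.0710 for Klf4 in DNCB against Solvent. Adgre4 in scMSC against DNCB was -0.0053 and -0.0576 with limma at pseudocounts of 1 and 0.1 and -0.0021 with counts divided by 4. TMM set the median of all genes near 0. With 1 library left out, Lyz2 ranged from -0.0847 to 0.19 in scivMSC against scMSC, from -0.71 to 0.10 in scMSC against Solvent and from -0.62 to 0.20 in scivMSC against Solvent. Nr4a1 ranged from -0.70 to 0.0324 and Klf4 from -0.0525 to 0.27 in DNCB against Solvent. Ace ranged from -0.36 to 0.23, Adgre4 from -0.32 to 0.32 and Cd300e from -0.13 to 0.24 in scMSC against DNCB. None of these leave-one-out values was called. limma on log2(FPKM + 1), whose fold changes are compressed for low genes, ended 12 calls. Among them were Nr4a1 in scivMSC against DNCB (-0.95) and Ly6c2 in scivMSC against Solvent (-0.83). Nr4a1 (limma adjusted p = 0.0526) and Fn1 (limma adjusted p = 0.0991) lost theirs in scivMSC against scMSC. The rest were Adgre4 and Cd300e in scivMSC against DNCB, scMSC and Solvent, and Klf4 in scivMSC against DNCB and Solvent. Without a filter, DESeq2 ended the calls of Adgre4 (-1.87, DESeq2 adjusted p = 0.0708) and Cd300e (-1.01, DESeq2 adjusted p = 0.108) in scivMSC against DNCB.

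With the replicate number as a replicate block, DNCB against Solvent had 1165 called genes. The block gave 1541 and 3627 for scMSC and scivMSC against DNCB, 1922 between the MSC groups and 3464 for scivMSC against Solvent, and no call of a member changed. Deviations of same-numbered libraries correlated at -0.200 to 0.173 (median 0.040), and 3 of 18 pairs passed 0.1, so the numbers were not taken to pair mice. The cause of these shifts was not tested. Depth limits Adgre4 and Cd300e in scivMSC to 0 to 30 estimated counts per library.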

Other observations

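Markers of lymphoid and red cells, read beside the monocyte genes with edgeR and total-count scaling, gave these counts. Of 7 T cell markers 6 were called lower in DNCB against Solvent (median log2 fold change -1.58), 0 were called in scMSC against DNCB (median 0.52), 2 were lower in scivMSC against DNCB (median -0.82) and all 7 were lower in scivMSC against scMSC (median -1.42). Of 5 B cell markers all 5 were lower in DNCB against Solvent (median -2.08), 0 were called in scMSC against DNCB (median -0.30), 5 were lower in scivMSC against DNCB (median -1.71) and 4 in scivMSC against scMSC (median -1.40). Of 3 tested NK cell markers 2 were lower in DNCB against Solvent (median -1.42), 0 were called in scMSC against DNCB and 2 were lower in scivMSC against DNCB (median -1.29). Against Solvent, scMSC had 0 T cell, 3 B cell and 1 NK cell markers lower, and scivMSC had 7, 5 and 3 lower. Of all genes, 4.87% were called lower in DNCB against Solvent, 62.0% in scivMSC against DNCB, 30.4% between the MSC groups, and 0.326% and 59.2% when scMSC and scivMSC were set against Solvent.

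TMM scaling changed most of these counts outside DNCB against Solvent, where 6 T cell, 5 B cell and 3 NK cell markers were lower. It called 6 of the 7 T cell markers higher in scMSC against DNCB (median 1.18) and 0 in scivMSC against DNCB (median 0.80) or against scMSC (median -0.61). It called 0 B cell markers in these 3 comparisons, and 1 NK cell marker higher in scivMSC against DNCB. Against Solvent it called 0 T cell, 4 B cell and 2 NK cell markers lower in scMSC, and 2, 5 and 2 in scivMSC. Of all genes TMM called 8.74% higher in scMSC against DNCB. It called 11.5%, 1.21% and 13.4% of them lower in DNCB, scMSC and scivMSC against Solvent. Irf7, the single tested marker of plasmacytoid dendritic cells, and the 5 tested erythroid markers were called in none of the 6 comparisons with total-count scaling. With TMM all 5 erythroid markers were called higher in scivMSC against DNCB and against Solvent and 3 against scMSC. Irf7 was then called higher in scivMSC against DNCB and against Solvent. Of all genes, 20.6%, 22.4% and 13.1% were called higher in scivMSC against DNCB, Solvent and scMSC. The rest of the plasmacytoid dendritic cell list, Siglech, Ccr9 and Tcf4, was too low to be tested. These genes had their lowest means in scivMSC, at 0.0064, 0.0074 and 0.0158 FPKM, so the call is of Irf7 alone. Like these lymphoid lists, Nr4a1, Ace, Adgre4 and Cd300e had lower means in DNCB than in Solvent, and Nr4a1 and Spn are also made by lymphocytes. Whether lymphocytes take part in the Nr4a1 result was not tested.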
